A study of Saccharomyces cerevisiae EC1118 with 12 samples.

Results

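The last step of an oxygen series in wine yeast was examined, the comparison of cultures sparged with gas holding 20% oxygen with cultures sparged with 5% oxygen. The 6 arrays of these groups were taken by their titles, out of 12 arrays in the series, and all 5449 annotated genes on the arrays were tested. The question put to this step was which transcripts still differ above 5% oxygen and so were not yet at a plateau there. The strain was EC1118, a commercial Saccharomyces cerevisiae wine yeast. It was grown at steady state in chemostats, vessels in which fresh medium replaces culture at a constant rate, on the synthetic grape must MS300. Nitrogen limited growth in all groups, the dilution rate was 0.1 per hour and the pH was 3.5. The 4 groups of 3 arrays differed only in the sparging gas as far as the labels say: no oxygen (anaerobic), 1%, 5% and 20% oxygen. The labels conflict on the dissolved oxygen this gave. Titles imply 2.7 micromolar in the 5% group and 5 micromolar in the 20% group, and the condition text gives 4 and 11 micromolar. Whether arrays of 1 group stem from separate chemostats is not labelled. The p-values therefore cover the spread among arrays and no more, and that spread may be technical.

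Yeast senses oxygen mainly through molecules whose synthesis needs it. Heme activates the transcription factor Hap1, which turns on respiratory genes and the repressor gene ROX1. Rox1 in turn holds down hypoxic genes, many of them isoforms or enzymes used when oxygen is scarce. Low sterol activates Upc2, which turns on genes of sterol uptake and cell wall mannoproteins. In wine making small amounts of oxygen matter because yeast needs them to make sterols and unsaturated fatty acids.

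Levels are log2 values, so a difference of 1 is a 2-fold difference, and each difference is the mean of the 20% arrays minus that of the 5% arrays, ± the standard error of the fit. No gene was called between 5% and 20% oxygen by limma at an adjusted p under 0.05, 0 of 5449 genes (0%). The smallest adjusted p was 0.503, for the inositol synthesis gene INO1. ANB1 and MCH5 followed at 0.713, and the other genes had values close to 1. At an unadjusted p under 0.05 there were 149 genes (2.73%), 113 with a higher mean at 20% (2.07%) and 36 with a lower one (0.661%). The arrays of the 2 groups did not overlap for 316 genes (5.8%), with the 3 arrays at 20% wholly above the 3 at 5% for 205 genes (3.76%) and wholly below for 111 genes (2.04%). Counts over the same arrays below are read against these shares. Arrays of 2 groups can also lie apart when the groups do not differ, so lack of overlap describes values and does not show a change. The share of 2.73% was likewise smaller than a threshold of 0.05 would give with no difference at any gene. A difference of at least 1 in size was seen for 49 genes (0.899%), 22 higher at 20% (0.404%) and 27 lower (0.496%). The mean was higher at 20% for 2804 genes (51.5%) and lower for 2645 (48.5%).

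A missed threshold does not show equal levels, so the 95% interval of each difference was used. It lay within 1 log2 unit of 0, that is within a 2-fold difference either way, for 4038 genes (74.1%). The median half-width of the interval was 0.563. By quartiles of mean level the share of genes bounded in this way went from 57.6% in the dimmest quartile to 80.9% in the brightest. For the other genes these arrays do not bound the difference at 2-fold. Lower oxygen gave many calls in the same fit: at 5% against anaerobic 290 genes were higher (5.32%) and 599 lower (11%). Between 1% and 5% oxygen 0 genes were called, and 265 had an unadjusted p under 0.05 (4.86%).

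**Figure D1:**
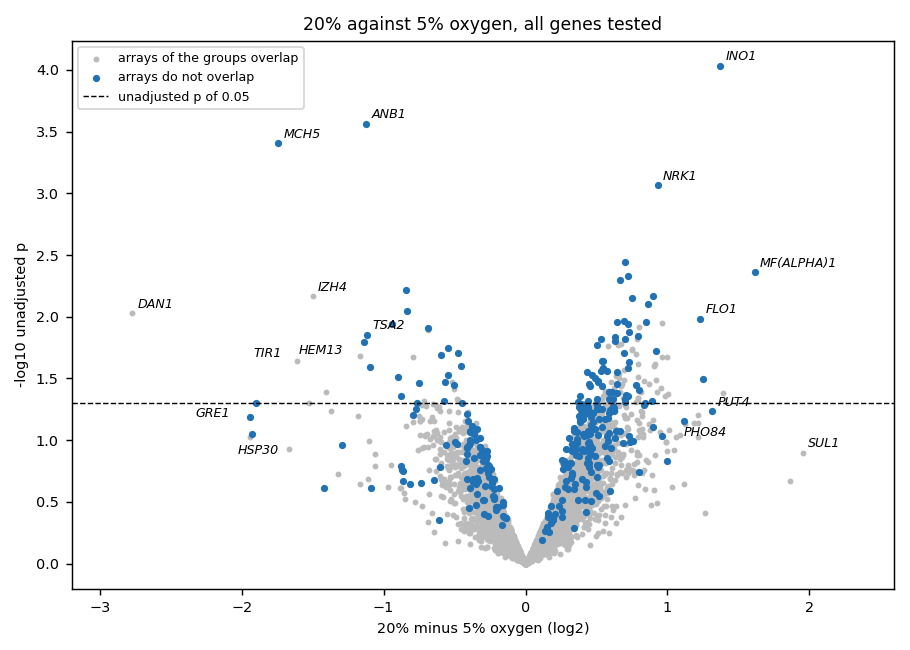
Each point is 1 of the 5449 genes, with its difference between 20% and 5% oxygen on the x axis (log2) and the unadjusted p on the y axis (-log10). Blue points are genes whose arrays do not overlap between the groups, and the dashed line marks an unadjusted p of 0.05. INO1, ANB1, MCH5 and NRK1 stand highest, and DAN1 (-2.77) lies farthest to the left.

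The arrays of the 20% group were less alike than those of the 5% group. Over all genes, arrays correlated at 0.961 to 0.969 within the 20% group and at 0.974 to 0.985 within the 5% group. Array 2 of the 20% group correlated more with the 5% arrays (0.983 to 0.991) than with its own partners (0.968 to 0.969). Without it 483 genes had an unadjusted p under 0.05, and still 0 were called. Its ANB1, DAN1 and TSA2 levels were below every 5% array, which for ANB1 and TSA2 follows from groups that do not overlap. By list median it lay inside the 5% range for the sulfate and mitochondrial ribosomal genes described below. Array 3 at 1% oxygen lay farthest from its group, with an SD of deviations of 0.548. It enters this comparison only through the shared spread, and without it the adjusted p of INO1 was 0.069.

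The hypoxic genes had their lowest levels at 20% oxygen in several cases. Of 14 hypoxic genes, 4 had all 20% arrays below all 5% arrays, beside 2.04% of all genes, and 0 were called. The median difference of the list was -0.26, beside 0.01 for all genes, and it was -0.43 without 20% array 3 and -0.14 without 20% array 1. The 4 were ANB1, AAC3, HEM13 and COX5B. Between anaerobic and 5% oxygen 6 of the 14 were called lower, beside 11% of all genes. That comparison shares the 5% arrays with this one, so the values stand only side by side.

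ANB1 encodes the hypoxic form of translation factor eIF5A. Its level was 10.88, 10.93 and 11.50 on the 5% arrays and 10.27, 9.86 and 9.81 on the 20% arrays. All 20% values lay below the lowest value at 5%. The difference was -1.12 ± 0.22 (95% interval -1.61 to -0.64, limma adjusted p = 0.713), a level 2.18-fold higher at 5%. The 1% arrays stood at 11.62, 11.70 and 11.64, and the anaerobic arrays at 11.82, 12.33 and 12.20. ANB1 fell by 1.01 between anaerobic and 5% oxygen (limma adjusted p = 0.0106), so the 2 differences are similar in size. Its aerobic partner HYP2 was at 12.06, 11.97 and 12.03 at 5% and at 11.97, 12.08 and 11.83 at 20%. The groups overlapped, and the difference of -0.06 was bounded between -0.41 and 0.29.

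AAC3, the hypoxic ADP/ATP carrier of mitochondria, read 7.93, 7.58 and 7.76 at 5% and 7.10, 7.08 and 6.83 at 20%. The groups did not overlap, with a difference of -0.75 ± 0.31 (interval -1.44 to -0.07). PET9 encodes the main carrier used in respiring cells. It read 10.27, 9.61 and 10.15 at 5% and 10.56, 10.51 and 10.29 at 20%, without overlap in the other direction (0.44 ± 0.26, interval -0.13 to 1.01). It was at 0.24 without 5% array 2. Within the subunit 5 pair of cytochrome c oxidase the hypoxic COX5B read 8.66, 8.79 and 8.61 at 5% and 8.18, 8.36 and 8.26 at 20% (-0.41 ± 0.24). The aerobic COX5A overlapped between the groups (0.20 ± 0.33), after a rise of 1.63 up to 5% oxygen (limma adjusted p = 0.00705). Of the cytochrome c genes, CYC1, the aerobic form, had a wide interval (0.67, from -1.09 to 2.44), and so had CYC7, the hypoxic form (-0.18, from -1.67 to 1.31). COX5B is also counted among the respiratory genes below.

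HEM13 encodes coproporphyrinogen oxidase, a step of heme synthesis that uses oxygen as a substrate. Its level was 7.90, 7.24 and 7.81 at 5% and 6.99, 6.30 and 6.24 at 20%. The groups did not overlap, and the difference was -1.14 ± 0.41 (interval -2.03 to -0.25, limma adjusted p = 0.999). HEM13 had already fallen by 3.49 between anaerobic and 5% oxygen (limma adjusted p = 0.0011). Of the 8 heme synthesis genes, 7 had a lower mean at 20%, with a list median of -0.25 (-0.42 without 20% array 2), and HEM13 was the only one without overlap. HMX1, a heme oxygenase that breaks heme down, overlapped between the groups (0.64 ± 0.86).

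TSA2, a peroxiredoxin gene, read 5.13, 4.60 and 5.41 at 5% and 3.57, 4.20 and 4.02 at 20% oxygen. These groups were also apart, by -1.12 ± 0.39. The levels of both groups are dim, under the limit of 5.84 that marks the lowest 25% of gene means, where the method that made the values compresses differences. HUG1, an inhibitor of ribonucleotide reductase, read 5.85, 7.25 and 5.93 at 5% and 5.42, 4.93 and 5.39 at 20%, a difference of -1.09 ± 0.43 without overlap. Its difference was -0.64 without 5% array 2 and -1.34 without 5% array 1. HUG1 fell by 4.24 between anaerobic and 5% oxygen (limma adjusted p = 0.000481).

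**Figure D2:**
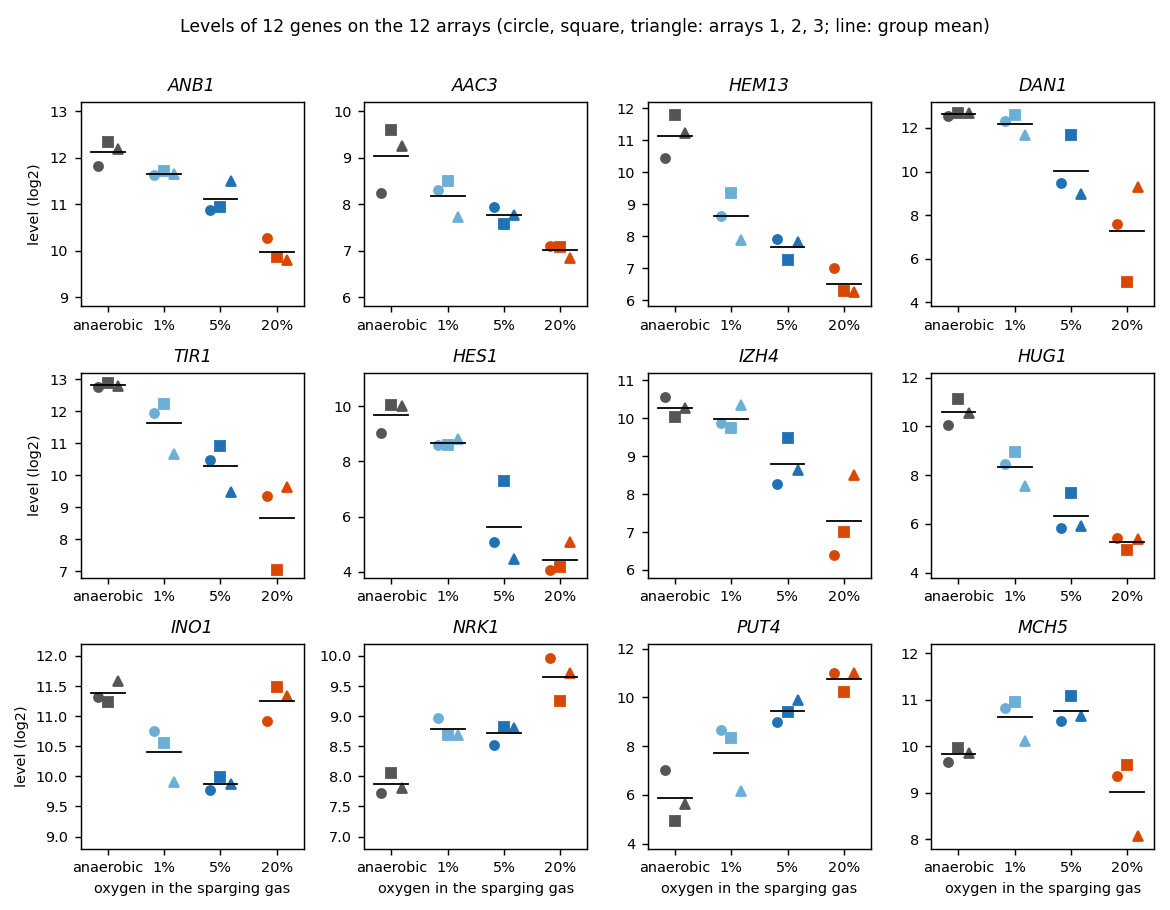
Each panel is 1 of 12 genes, with the log2 level on the y axis, the oxygen of the sparging gas on the x axis, a marker for each of the 12 arrays and a line at each group mean. ANB1, AAC3, HEM13, HUG1 and MCH5 have 20% arrays wholly below the 5% arrays, INO1, NRK1 and PUT4 wholly above, and DAN1, TIR1, HES1 and IZH4 overlap.

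As a list, the regulators of these genes did not lie lower at 20%. HAP1, the heme-responsive activator, was bounded between -0.55 and 0.34 around a difference of -0.11. ROX1, the repressor of hypoxic genes, ranged from 5.92 to 7.15 at 5% and from 5.87 to 7.89 at 20%, which leaves its interval at -1.70 to 2.28. HAP4, which activates respiratory genes, differed by 0.21 ± 0.42. Of 21 oxygen and heme regulators, 15 had a higher mean at 20% (median 0.21). Wholly above lay 4 (19.0%, beside 3.76% of all genes), and 0 lay wholly below (beside 2.04%). The list is long in coding length, with 9 of its 21 genes in the longest quartile. In that quartile 7.34% of all genes lay wholly above and 0 wholly below. The list median was 0.018 without 5% array 3 and 0.37 without 20% array 2. The 4 were IXR1, CYC8, MOT3 and TUP1, named after their values were seen, with differences of 0.80, 0.70, 0.80 and 0.44. CYC8 and TUP1 encode the corepressor pair that Rox1 recruits. IXR1 was at 4.35, 4.68 and 5.00 at 5% and at 5.43, 5.30 and 5.70 at 20%, below its anaerobic values of 7.16, 7.39 and 7.09. SET4, which encodes a SET domain protein and is induced in low oxygen, lay on the other side (-1.41 ± 0.61, interval -2.75 to -0.07), with overlapping groups of 4.37, 6.31 and 3.56 at 5% and 2.46, 3.07 and 4.49 at 20%. The SET4 difference was -0.63 without 5% array 2 and -2.0 without 5% array 3. SET4 is dim by its mean over all arrays, so the size of its difference is uncertain.

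The sterol uptake and mannoprotein genes had the lowest list median, and its size rested on single arrays. Of 12 such genes, 11 had a lower mean at 20% and the list median was -0.58, yet 0 had groups that did not overlap. By array the list's median level was 6.92, 8.58 and 6.61 at 5% and 7.01, 5.94 and 7.36 at 20%. Array 2 of the 5% group was therefore the high one and array 2 of the 20% group the low one, with the other 4 arrays between 6.61 and 7.36. Array 2 held the highest 5% value for 10 of the 12 genes. Without it the list median was -0.15, and without 5% array 3 the median was -0.83. The list stood at 10.85 to 11.34 on the anaerobic arrays. From there to 5% oxygen 11 of the 12 genes were called lower, beside 11% of all genes.

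DAN1, a cell wall mannoprotein gene of anaerobic growth, read 9.46, 11.68 and 8.94 at 5% and 7.58, 4.93 and 9.27 at 20%. The groups overlapped through array 3 at 20%. The difference of -2.77 ± 0.90 (interval -4.73 to -0.82, limma adjusted p = 0.999) was the largest of all genes in size. It was -1.61 without 20% array 2 and -3.78 without 20% array 3. The mannoprotein gene TIR1 read 10.46, 10.90 and 9.48 at 5% and 9.35, 7.02 and 9.64 at 20% (-1.61 ± 0.62). Its difference was -0.79 without 20% array 2 and -2.10 without 20% array 3. TIR2 read 9.19, 9.57 and 7.63 at 5% and 7.33, 7.49 and 8.07 at 20% (-1.17 ± 0.44). Its difference was -0.78 without 5% array 2 and -1.75 without 5% array 3. For TIR1 and TIR2 the groups overlapped. TIR4 (-0.69 ± 0.91) and DAN4 (-0.19 ± 0.66), of the same kind, and HPF1 (-0.55 ± 0.63), whose mannoprotein reduces protein haze in wine, had intervals on both sides of 0.

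The sterol importer genes AUS1 (-0.45 ± 0.35) and PDR11 (-0.31 ± 0.39) and their activator gene UPC2 (-0.61 ± 0.33) also had intervals that cover 0. Without 5% array 2 AUS1 was at -0.042 and UPC2 at -0.26, and without 5% array 3 they were at -0.70 and -0.95. For AUS1 the 20% arrays at 6.70, 6.93 and 6.97 were close together and overlapped the 5% arrays at 6.99, 8.14 and 6.82. HES1, of the oxysterol-binding family, read 5.09, 7.30 and 4.48 at 5% and 4.08, 4.19 and 5.07 at 20% (-1.18 ± 0.58). Its 5% array 2 is again the high one, and the difference was -0.34 without it and -1.75 without 5% array 3. IZH4, a membrane protein gene linked to zinc and sterol metabolism, read 8.28, 9.49 and 8.64 at 5% and 6.39, 7.0 and 8.51 at 20%. Only array 3 at 20% reached the 5% range, and the difference was -1.50 ± 0.46 (interval -2.50 to -0.50).

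Sterol synthesis itself was more tightly bounded. Of 26 ergosterol synthesis genes, 22 had intervals within 1 unit of 0 and the list median was -0.11 (-0.017 without 5% array 2). ERG3, a desaturase of the pathway that uses oxygen, had the smallest p of the list, with a difference of -0.39 ± 0.22. ERG6, a methyltransferase of the late pathway, overlapped (0.34 ± 0.51). The 13 PAU genes, a family of near-identical anaerobic wall proteins whose probe sets may not tell the copies apart, had a median of 0.09 and no array separation. All 13 were called lower at 5% oxygen than in the anaerobic group, beside 11% of all genes, with a median of -2.90.

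**Figure D3:**
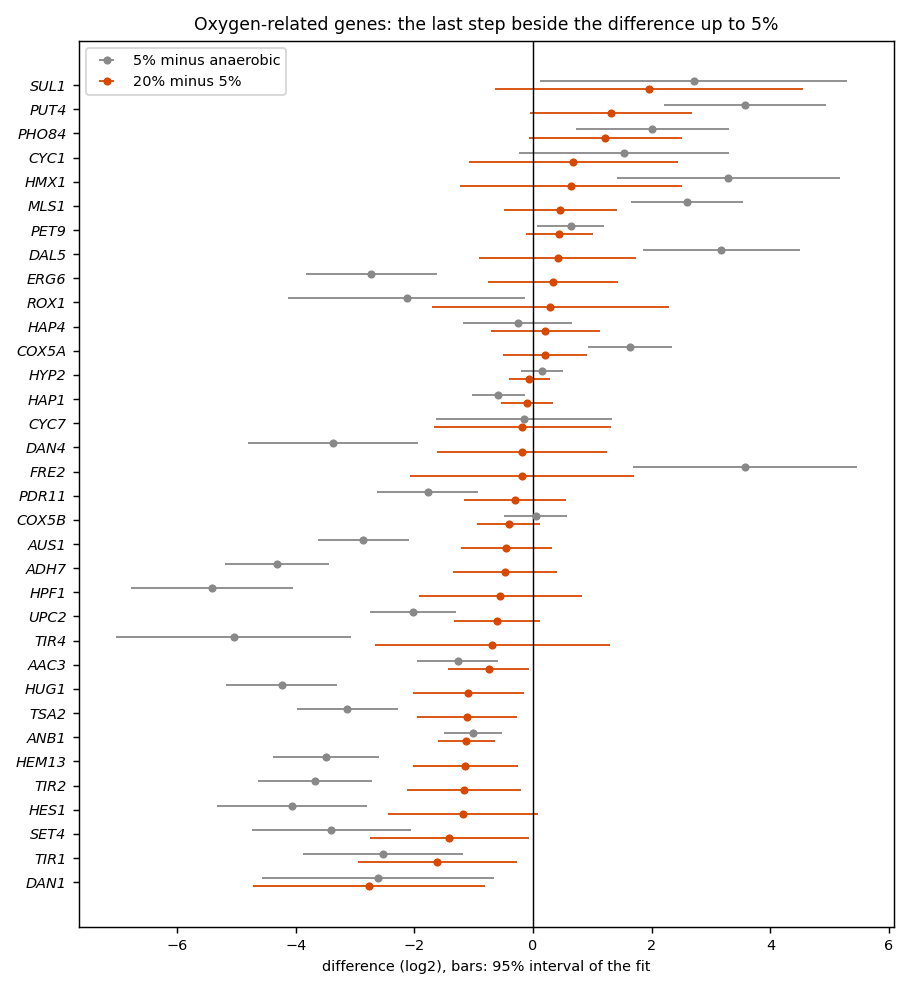
For each of 34 oxygen-related genes, points give the difference between 20% and 5% oxygen (orange) and between 5% oxygen and anaerobic (grey) on a log2 axis, with 95% intervals of the fit as bars. The 2 differences share the 5% arrays. For 20% against 5%, 9 intervals lie below 0, 0 above and 25 cover it, and 4 lie within 1 unit of 0.

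Respiratory lists differed in how many of their genes were bounded within a 2-fold difference. Of 16 ATP synthase genes, 15 were bounded within 1 unit, with a list median of 0.01. ATP2, a catalytic subunit, was the 1 member without overlap, at 9.81, 9.44 and 10.12 at 5% and 10.18, 10.27 and 10.51 at 20% (0.53 ± 0.21). Of 16 tricarboxylic acid cycle genes, 15 were bounded likewise, with a median of 0.00. SDH1, a subunit of succinate dehydrogenase, had the smallest p of that list (0.42 ± 0.23). Of 20 genes for cytochrome c and complexes III and IV, 16 had a higher mean at 20%, with a median of 0.16, and 13 were bounded within 1 unit. The median was -0.0050 without 5% array 2 and 0.26 without 5% array 3. COX5B, lower, was the only one without overlap. Up to 5% oxygen 5 of these 20 were called higher and 0 lower, beside 5.32% and 11% of all genes. By mean, 18 of the 20 were higher at 5% than in the anaerobic group.

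Of 9 NADH dehydrogenase and complex II genes, 5 were bounded within 1 unit. Their means were higher at 20% for 5 and lower for 4, with a median of 0.10 that ran from -0.09 without 5% array 3 to 0.33 without 5% array 1. SDH1 and NDE1 were the 2 without overlap, both higher (22.2%, beside 3.76% of all genes). NDE1, an external NADH dehydrogenase, read 6.97, 6.64 and 7.21 at 5% and 7.37, 8.10 and 8.34 at 20%, without overlap (0.99 ± 0.64, interval -0.40 to 2.39). GUT2, the mitochondrial glycerol 3-phosphate dehydrogenase, overlapped (1.19 ± 0.60). Outside that list, GUT1, the glycerol kinase gene, did not overlap (0.75 ± 0.23, interval 0.25 to 1.26). ATM1, a mitochondrial transporter needed for cytosolic iron-sulfur proteins, read 5.59, 5.83 and 5.91 at 5% and 6.96, 6.01 and 6.89 at 20% (0.85 ± 0.28).

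The mitochondrial ribosome list had a median below 0 but overlapping arrays. Of 68 genes 65 had a lower mean at 20% (median -0.44), and 0 were without overlap. The median level by array was 9.0, 8.22 and 8.92 at 5% and 8.11, 8.92 and 7.64 at 20%. Array 2 of the 20% group stood with arrays 1 and 3 of the 5% group, and array 2 of the 5% group stood with array 1 of the 20% group. The list median was -0.74 without 20% array 2 and -0.22 without 20% array 3. By contrast all 90 cytosolic ribosomal protein genes were bounded within 1 unit, with a median of -0.05.

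INO1 had the smallest p of the comparison, and its difference was opposite in sign to that up to 5% oxygen. It encodes inositol 3-phosphate synthase, the first step of inositol and so of phosphatidylinositol synthesis. The level was 9.78, 9.98 and 9.87 at 5% and 10.92, 11.48 and 11.34 at 20% oxygen. The groups lay apart, and the difference was 1.37 ± 0.24 (interval 0.85 to 1.89, limma adjusted p = 0.503), a level 2.59-fold higher at 20%. Between anaerobic, at 11.33, 11.23 and 11.58, and 5% oxygen INO1 fell by 1.50 (limma adjusted p = 0.00285). That fall and the difference above share the 5% arrays, which enter them with opposite sign, so they stand only side by side. The 20% mean of INO1 differed from its anaerobic mean by -0.13. The INO1 difference between 5% and 20% ranged from 1.25 to 1.53 with each array left out. Its sign could not change there, since the groups do not overlap, and the anaerobic and 1% arrays do not enter it. Of 23 fatty acid and phospholipid genes, 5 lay wholly above at 20% (21.7%, beside 3.76% of all genes), INO1, INO4, FAA1, PSD1 and PSD2. PIS1 lay wholly below (4.35%, beside 2.04%). INO4 encodes an activator of INO1, and it read 6.68, 6.78 and 6.08 at 5% and 7.01, 6.79 and 7.17 at 20%. These genes other than INO1 were named after their values were seen, and the list median was 0.17.

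MCH5, a riboflavin transporter gene, lay on the other side. It read 10.54, 11.07 and 10.64 at 5% and 9.37, 9.59 and 8.07 at 20%. All 20% arrays were lower, by -1.74 ± 0.36 on average (interval -2.53 to -0.96, limma adjusted p = 0.713). The anaerobic arrays at 9.67, 9.96 and 9.86 lay between. INO1, MCH5, NRK1, PUT4, HSP26, HSP30, GRE1 and MF(ALPHA)1 were named by a rule that requires arrays without overlap. For them the separation is no further result. NRK1, a nicotinamide riboside kinase gene of NAD salvage, read 8.52, 8.83 and 8.81 at 5% and 9.96, 9.26 and 9.72 at 20% (0.93 ± 0.21, interval 0.47 to 1.39). It had risen by 0.85 between anaerobic and 5% oxygen (limma adjusted p = 0.0181). Of 15 NAD synthesis genes it was 1 of 2 without overlap, beside 5.8% of all genes. The other, NRT1, which encodes a nicotinamide riboside transporter and was named after its values were seen, lay below (-0.68), at 7.38, 7.37 and 7.24 at 5% and 6.65, 6.64 and 6.64 at 20%. Neither gene was called, and the median of the list was -0.0073.

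Nitrogen-responsive genes, which matter in these nitrogen-limited cultures, also had values on both sides within the proline pathway, with 0 called. PUT4, the proline permease gene, read 8.99, 9.39 and 9.90 at 5% and 10.99, 10.24 and 11.01 at 20%, all higher (1.32 ± 0.63, interval -0.05 to 2.69). It had risen by 3.57 up to 5% oxygen (limma adjusted p = 0.00419). PUT2, the second enzyme of proline breakdown, read 11.28, 11.35 and 11.27 at 5% and 10.51, 10.87 and 10.21 at 20%, all lower (-0.77 ± 0.36). The intervals of PUT4 and PUT2 both cover 0. PUT1, the proline oxidase gene, was also lower without overlap (-0.39, named after its values were seen). Of 37 genes of nitrogen catabolite repression, 23 had a higher mean at 20%, with a median of 0.22. Wholly above lay 2 and wholly below 2 (5.41% each), beside 3.76% and 2.04% of all genes. The median was 0.029 without 20% array 3 and 0.37 without 20% array 2. DAL5, the allantoate permease gene, had risen by 3.17 up to 5% oxygen (limma adjusted p = 0.00596) and here overlapped (0.41 ± 0.61).

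Sulfate and methionine genes gave the highest list median, 0.58, with 29 of 31 means higher at 20% and 0 genes without overlap. By array the list's median level was 9.07, 8.42 and 7.80 at 5% and 9.57, 8.09 and 10.30 at 20%, so array 2 of the 20% group lay inside the 5% range. The median was 1.18 without 20% array 2 and 0.03 without 20% array 3. SUL1, a sulfate permease gene, showed this most, at 6.17, 4.69 and 4.32 at 5% and 8.02, 3.29 and 9.72 at 20% (1.95 ± 1.19, interval -0.64 to 4.54). PHO84, the phosphate transporter gene, read 5.65, 6.70 and 6.25 at 5% and 8.38, 6.62 and 7.26 at 20%, and its groups overlapped (1.22 ± 0.59). The PHO84 difference was 0.74 without 20% array 1. SUL1 and PHO84 are both dim by their means over all arrays, so the sizes of their differences are uncertain.

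**Figure D4:**
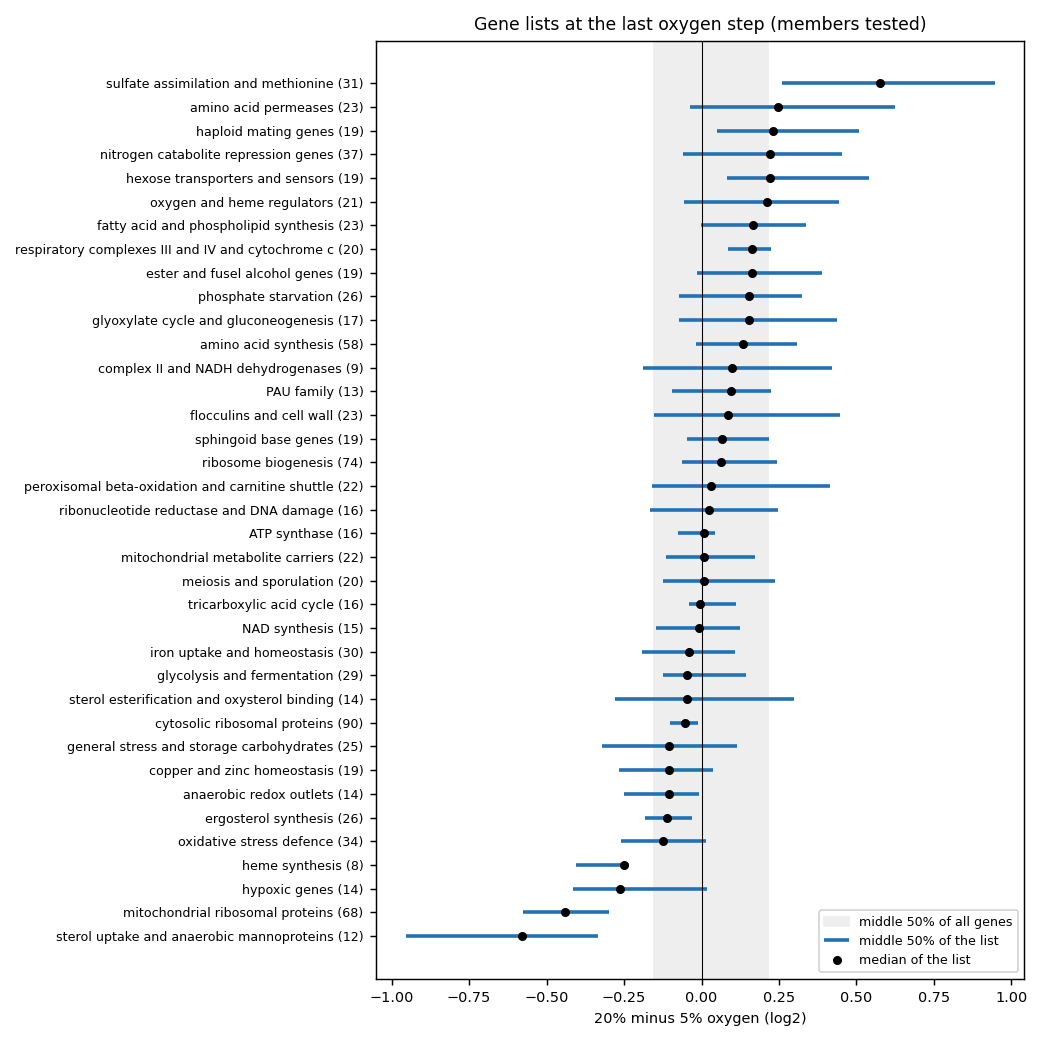
For each of 37 gene lists, the black point is the median difference between 20% and 5% oxygen (log2) over its tested members, whose number stands in parentheses, and the blue line is their interquartile range. The grey band is the interquartile range of all genes, from -0.15 to 0.21. Sterol uptake (-0.58) and mitochondrial ribosomal genes (-0.44) lie lowest and sulfate genes (0.58) highest.

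Genes of the general stress response were among the largest lower values. Of 25 such genes, 4 were without overlap and lower at 20%, beside 2.04% of all genes, but 10 of the 25 had a higher mean. The list median was -0.10, with -0.28 without 20% array 3 and 0.061 without 5% array 1. HSP26, a small heat shock protein gene, read 8.62, 8.75 and 7.83 at 5% and 6.11, 7.41 and 5.99 at 20% (-1.90 ± 0.87). HSP30, a plasma membrane stress protein gene, read 6.59, 7.69 and 5.96 at 5% and 4.55, 5.69 and 4.21 at 20% (-1.93 ± 1.04). HSP30 is dim by its mean over all arrays, and its 20% mean of 4.82 lay below the dim limit. GRE1, a hydrophilin gene, read 8.15, 8.21 and 6.71 at 5% and 5.67, 6.60 and 4.96 at 20% (-1.94 ± 0.96). SPI1, a cell wall protein gene named after its values were seen, was the fourth (-0.74). These genes also varied within groups at lower oxygen: GRE1 was at 10.62 on 1% array 3 against 6.15 and 7.07 on its partners, and HSP30 was at 8.99 on anaerobic array 1 against 4.35 and 4.47. Of the 15 genes with the largest lower values without overlap, 8 had their highest level of all 12 arrays on 1% array 3 and 2 on anaerobic array 1. Over all 5449 genes the counts were 1432 and 328. The part of that spread in the 20% to 5% difference was not tested.

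The other 15-gene set, with the largest higher values without overlap, was led by MF(ALPHA)1 and INO1. MF(ALPHA)1 encodes the mating pheromone alpha-factor and read 5.63, 5.91 and 6.31 at 5% and 8.35, 7.37 and 6.98 at 20% (1.61 ± 0.46, interval 0.61 to 2.62). The pheromone is a product of haploid cells, so 8 haploid markers were examined. Of the 8, 6 had a mean below the dim limit at 5% and 7 at 20%, with array medians from 4.10 to 4.37 at 5% and from 4.32 to 4.71 at 20%. Of the wider list of 19 haploid mating genes, 17 are dim. In that list 15 had a higher mean at 20% (median 0.23), 4 lay wholly above, beside 3.76% of all genes, and 1 lay wholly below. The 4 were MF(ALPHA)1, FUS3, AGA2 and MFA2, and the 1 below was STE3, and those other than MF(ALPHA)1 were named after their values were seen. The list median was 0.12 without 20% array 3 and 0.37 without 5% array 3. Their part in the MF(ALPHA)1 value was not tested. Of 8 sporulation markers 7 were dim in each group. FLO1, a flocculin gene, read 5.04, 4.95 and 4.28 at 5% and 5.87, 6.28 and 5.82 at 20% (1.23 ± 0.41). Its mean lay below the dim limit at 5% (4.76) and above it at 20% (5.99). The size of its difference is therefore uncertain, since differences of dim genes are compressed. MF(ALPHA)1 is also dim by its mean over all arrays, but its means at 5% (5.95) and 20% (7.57) lay above the limit. FLO1 belongs to a family with similar repeats, so its probe set may also read related genes. MAL31, a maltose permease gene, read 6.55, 6.46 and 6.14 at 5% and 6.65, 6.56 and 8.80 at 20%, so array 3 alone makes the difference of 0.96, which was 0.23 without it. ALD6, the acetaldehyde dehydrogenase gene, was at 10.06, 10.10 and 11.23 at 20% (0.75 ± 0.43) and at 0.37 without array 3.

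Length of the coding sequence went along with the difference. Over all genes, which are not independent replicates, the difference correlated with log coding length at r = 0.278. The median difference by quartile of length was -0.08, -0.06, 0.03 and 0.18 from the shortest to the longest. In the longest quartile 7.34% of genes lay wholly above at 20% and 0 wholly below. Of the 113 genes with an unadjusted p under 0.05 and a higher mean, 59 were in the longest quartile, and of the 36 with a lower mean 0 were. Array 3 of the 20% group stood apart here. Its deviations from the group mean correlated with log length at 0.388, against -0.181 and -0.237 for its partners. With a length trend removed from each array the correlation was 0.0246, and 0 genes were called. Of the 15 named genes with the largest higher values 7 were in the longest quartile, among them KIC1 (0.90), a kinase gene of cell wall integrity, REV1 (0.73), of translesion DNA synthesis, and INP53 (0.73), a phosphoinositide phosphatase gene. Their part in the length trend was not tested.

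**Figure D5:**
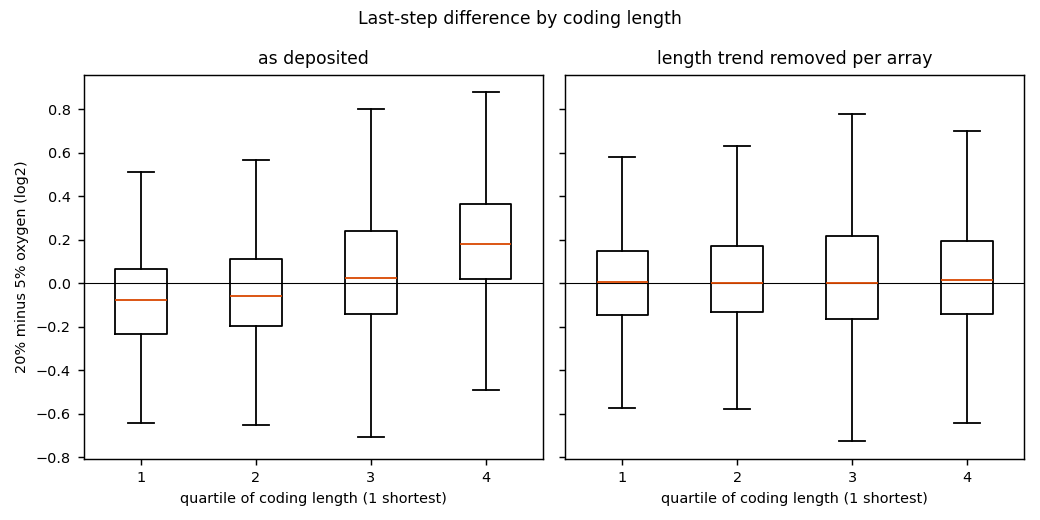
Boxes show the difference between 20% and 5% oxygen (log2) for genes in quartiles of coding length, from the deposited values on the left and after removal of a length trend from each array on the right. Lines are medians, boxes the interquartile range, and whiskers follow the rule of Tukey, with points beyond them left out. On the left the medians go from -0.08 in the shortest to 0.18 in the longest quartile.

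A comparison with the first step of the series, 1% oxygen against anaerobic, uses 6 other arrays and so shares none with the last step. At the first step 287 genes were called as risen (5.27%) and 608 as fallen (11.2%). Among the 608 that fell, 538 had a higher mean at 20% than at 5% and 70 a lower one, with a median of 0.35 beside 0.01 for all genes. In 68 of the 608 the 20% arrays lay wholly above (11.2%, beside 3.76% of all genes), and in 8 wholly below (1.32%, beside 2.04%). Among the 287 that rose, 225 had a lower mean at 20% and 62 a higher one, with a median of -0.13. The set that fell was longer and dimmer than the rest, with a median coding length of 1620 bases against 1236 for all genes and 39.1% dim genes. With the length trend removed, 521 of the 608 were higher, with a median of 0.27, and 203 of the 287 were lower, with a median of -0.11.

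The difference between the 2 steps was tested in the same fit. It was called for 418 genes (7.67%), 338 with a last step above the first (6.2%) and 80 below it (1.47%). The 338 genes had a median first step of -1.27 and a median last step of 0.48, and the 80 genes medians of 0.98 and -0.28. These genes were chosen by the difference of the same 2 steps, so their medians are no separate support for a reversal. This count rests on single arrays. It was 0 without anaerobic array 2 or 3, 5% array 1 or 2, or 20% array 1 or 3, it was 150 without anaerobic array 1 and 268 without 1% array 3, and it was 664 without 20% array 2. INO1 (2.35, limma adjusted p = 0.0252) and MCH5 (-2.54, limma adjusted p = 0.0265) were called in this test. ANB1 was not (-0.66, limma adjusted p = 0.176), nor were HEM13 (1.38, limma adjusted p = 0.133) and NRK1 (0.01, limma adjusted p = 0.982).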

How the data were processed

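Per the labels' protocols, the 12 RNA samples carried a biotin label and were read on Affymetrix expression arrays. The deposited values are log2 levels made by the authors with RMA, a method of background correction, joint normalization of arrays and probe set summary, per the submitters' processing notes. The version of RMA is not given in the sources used here, nor are its settings, and the log2 scale was read from the values. RMA compresses differences of dim probe sets, and precision is limited by how many arrays there are. Coordinates and sequences were not used here.

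The platform annotation gave 1 gene for 5498 of 5716 probe sets and none for 218. All 5498 matched the reference gene table, which updated 12 symbols. The brightest probe set was taken for 47 genes with several, leaving 5449 genes, of which the lowest 25% by mean (1362) are called dim. The limma package, version 3.58.1 (R 4.3.3), fitted 1 mean for each group over the 12 arrays and moderated the variances (residual degrees of freedom 8, prior 4.11), with Benjamini-Hochberg adjustment over all genes and calls at an adjusted p under 0.05. The fit was tested on simulated data.

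Named genes are the 15 with the largest difference in each direction among genes whose arrays did not overlap, with a symbol, no PAU name and a higher group that was not dim; 34 oxygen-related genes; and, for each list, the called members or, with none called, the member of lowest p. No gene was called, so the first and last groups are given as values. Members and the 37 lists were chosen with earlier results of these data known. Same-numbered arrays of the 2 groups had deviations that correlated at -0.124, -0.143 and -0.237, so the numbers were not taken as pairs. Alternatives were other scalings, removal of a length trend, dim genes left out, other probe set rules and priors, weights per array, a replicate block, only 6 arrays, other thresholds and each array left out.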

Additional observations from a re-analysis of the deposited data

How the results depend on the processing

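No gene was called between 20% and 5% oxygen under any of 25 alternative settings, with smallest limma adjusted p from 0.069 (INO1, without 1% array 3) to nearly 1 (without 5% array 2). Genes with an unadjusted p under 0.05 ranged from 62 without 20% array 3 to 483 without 20% array 2, with 68 without 5% array 1 and 368 without 5% array 3. The replicate block gave 0 calls and a smallest adjusted p of 0.678. The count for the last step minus the first, 418, was 253 with dim genes left out, 671 with array weights (whose estimate did not converge), 106 with the replicate block, 302 with the length trend removed, 1040 at an adjusted p under 0.10, and 0 to 664 with 1 array left out. Genes bounded within 1 unit ranged from 3128 to 4370 with 1 array left out. The medians for genes that fell and rose at the first step ranged from 0.25 to 0.48 and from -0.22 to -0.08 with 1 array left out. Both sets were kept as called in the main fit. Leaving out an anaerobic or 1% array therefore could not move these medians, and whether the sets depend on those arrays was not tested.

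Of 85 named genes 73 kept their sign under every alternative, but much of this count was fixed in advance. Among the 85, 25 lay wholly above and 19 wholly below, and their sign cannot change when 1 array is left out. Other priors, other thresholds and leaving out an anaerobic or 1% array do not move the difference of any gene. The count is therefore no measure of how firm the signs are. HYP2 was at 0.044 with the length trend removed, and with array weights HPF1 was at 0.22 and ROX1 at -0.28. With 1 array left out the range was -1.24 to 0.11 for HPF1, -1.24 to 0.31 for TIR4, -0.48 to 0.071 for DAN4, -0.69 to 0.082 for PDR11, -0.12 to 0.0034 for HYP2, -0.0079 to 1.34 for CYC1, -0.50 to 0.092 for CYC7, -0.17 to 0.84 for ROX1, -0.28 to 0.00019 for HAP1, -0.19 to 0.45 for HAP4, -0.16 to 0.63 for ERG6 and -0.42 to 0.15 for FRE2. For these changes the cause was not tested. A promoter search was not run.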
